A study of Homo sapiens with 3 samples.

Results

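Epithelial cells hold to one another through adherens junctions, desmosomes and tight junctions, and carry keratin filaments that end on the desmosomes. The genes of these structures were read out here after siRNA against RAB11A in EBC-1, a cell line long kept in culture that came from a squamous carcinoma of the human lung. The set took every gene symbol of the form CLDN or KRT plus a number (claudins and keratins) together with 29 named genes. The rule uses symbols and no measured value. Of the named genes 19 had values, and 6 claudins and 6 keratins were added, which gave 31 genes of 13479 in the table. The other 10 named genes, CDH1, CDH2, CDH3, DSC2, DSC3, TJP3, CGN, MARVELD3, ESRP1 and ESRP2, were not analysed here. Averaged over the libraries, 26 of the 31 genes reached 5 CPM (tags scaled to the library total, here 125 tags) and were compared among 10788 such genes. KRT34, PKP3, EPCAM, CLDN7 and CLDN3 lay below that mean and are given by their levels.

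The assay was CAGE (cap analysis of gene expression), in which a short tag is read at the 5′ cap of each transcript. One library had been made from cells with a negative control siRNA, one with RAB11A siRNA 1 and one with RAB11A siRNA 2. All cells were EBC-1 electroporated with 600 pmol siRNA, with no other allele or agent named. The time recorded for each library was 72 h after plating. Each group was 1 library of bulk RNA, so no difference has a replicate check, and intervals and standard errors cover counting error only. The step of the CPM values implies 24999968 to 24999972 tags per library. Tags summed over genes came to more, 25137457 to 25204585, and whether the near-equal totals are the sequenced depth is not known, so intervals hold only if 1 step is 1 tag. In bulk RNA, fewer cells of a type and less RNA per cell cannot be told apart. RAB11A itself stood at 135, 7.48 and 22.7 CPM in the control, siRNA 1 and siRNA 2 libraries. Below, values in threes follow that order.

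In an adherens junction, cadherins bind across the gap between cells while beta-catenin and alpha-catenin tie them to actin. In a desmosome, desmogleins and desmocollins do the binding, and plakoglobin, plakophilins and desmoplakin link them to keratin. Claudins and occludin seal the tight junction on the ZO scaffolds. RAB11A marks the recycling endosome, a compartment through which E-cadherin returns to the cell surface.

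Both siRNAs against RAB11A are shown because the results differ between them. They are written as the sense strand, 5′ to 3′, with the 7 bases in capitals that the guide strand reads with its seed (guide bases 2 to 8).
siRNA 1: gcauccagguuGAUGGAAa
siRNA 2: agcaagagcuuUUGCAGAa

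Among the 3′ untranslated regions of canonical transcripts of the 26 genes compared, that heptamer of siRNA 1 occurred in 3, those of CTNNB1, OCLN and CLDN23. The heptamer of siRNA 2 occurred in 2, those of PERP and KRT80. Over all genes compared with such a region, 14.6% and 16.1% held the respective heptamer. The CTNNB1 match lay at chr3:41281377-41281383 (plus strand, GRCh37) and the KRT80 match at chr12:52563842-52563848 (minus strand, GRCh37). Their 19-base windows, aligned to the siRNA and with the heptamer in capitals, shared 7 and 8 of 19 bases with siRNA 1 and siRNA 2. The windows of the other members matched more bases, 12 of 19 in CLDN23, 11 in PERP and 9 in OCLN. Their log2 ratios with the matching siRNA were -0.10, -0.22 and -0.24, nearer to 0 than those of CTNNB1 and KRT80, which are shown for their low ratios.
CTNNB1: atggatcacaaGATGGAAt
KRT80: aatgctgaggcTTGCAGAg

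CTNNB1 and KRT80 were also the members with the lowest ratio to control in the siRNA 1 and the siRNA 2 library. Over all genes compared, the median log2 ratio with siRNA 1 was -0.08 for genes with the heptamer and -0.02 for the others. With siRNA 2 it was -0.05 for both. Whether the match had a part in either gene's level was not tested.

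Promoter windows from RefSeq (GRCh38.p14, 250 bases before to 50 after a start) were found for 19 of the 31 genes, in 30 windows. They were searched on both strands for CAGGTG, the E-box read by SNAI and ZEB repressors, which act on epithelial genes. It occurred in 9 of 30 windows (30.0%) and in 20.6% of all 35116 promoter windows. The 8 genes with it were CLDN3, CLDN7, DSG2, DSP, JUP, OCLN, SFN and TJP1, whose mean levels ran from 1.31 to 138 CPM with a median of 28.1. The 11 genes without it ran from 4.72 to 774 CPM with a median of 79.3. The value of 774 CPM is VIM, the mesenchymal counterpart, and the next highest of the 11 was KRT8 at 338. The remaining 12 members had no window, among them KRT18 at 418 and EPCAM at 4.07 CPM. The 2 medians thus leave out part of the set, and whether CAGGTG goes with level was not tested. A match describes the letters in the window, not binding. The windows of CLDN7, with 5 matches (in capitals, CAGGTG or its reverse complement), CLDN1, with none, and CLDN11, with none, are shown to set the window with the most matches beside those of the claudins whose levels separated the siRNA libraries. CLDN7 and CLDN11 each have 2 windows. The other CLDN7 window held no CAGGTG, and neither did the other of CLDN11. They lie at chr17:7262429-7262728 (minus strand), chr3:190322397-190322696 (minus strand) and chr3:170418618-170418917 (plus strand), all GRCh38.
CLDN7: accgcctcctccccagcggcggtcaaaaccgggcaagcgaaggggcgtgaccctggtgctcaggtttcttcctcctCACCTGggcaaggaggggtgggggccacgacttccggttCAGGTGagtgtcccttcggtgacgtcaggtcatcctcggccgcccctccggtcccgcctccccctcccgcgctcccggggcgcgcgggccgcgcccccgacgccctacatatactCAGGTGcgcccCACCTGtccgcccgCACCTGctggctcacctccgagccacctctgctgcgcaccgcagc
CLDN1: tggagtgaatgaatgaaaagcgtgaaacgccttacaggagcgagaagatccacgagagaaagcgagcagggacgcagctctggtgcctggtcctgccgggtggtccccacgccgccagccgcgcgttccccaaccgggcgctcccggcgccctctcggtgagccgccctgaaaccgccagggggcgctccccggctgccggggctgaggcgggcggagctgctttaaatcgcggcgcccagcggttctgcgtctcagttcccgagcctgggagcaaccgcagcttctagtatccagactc
CLDN11: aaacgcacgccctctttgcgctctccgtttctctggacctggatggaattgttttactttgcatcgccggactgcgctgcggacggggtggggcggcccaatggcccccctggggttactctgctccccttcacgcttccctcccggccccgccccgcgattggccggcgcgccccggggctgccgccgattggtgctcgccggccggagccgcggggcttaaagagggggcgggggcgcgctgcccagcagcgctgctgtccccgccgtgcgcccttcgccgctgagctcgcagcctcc

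CAGE counts 1 tag per capped end, so levels carry no gene length and can be set side by side. The highest of the 31 genes was VIM, the intermediate filament protein vimentin of mesenchymal cells and of many cultured lines, at 894, 692 and 735 CPM. Next came the simple-epithelium keratin pair KRT18 and KRT8, above every cadherin-associated, desmosomal and tight junction gene measured. EPCAM, an epithelial surface adhesion molecule, stood at 4.20, 4.28 and 3.72 CPM. Of 6 epithelial markers, 4 had values (KRT18, KRT8, KRT19 and EPCAM), summing to 828, 1013 and 878 CPM. Of 9 mesenchymal or fibroblast markers, 4 had values, VIM, FN1, COL1A1 and COL1A2, summing to 909, 703 and 750 CPM, nearly all of it VIM. None of 8 squamous markers had a value used here. The epithelial label therefore rests on simple keratins and junction genes, beside high VIM. None of 5 endothelial markers and 1 of 6 leukocyte markers had a value, the latter CD68, a lysosomal protein, at 45.2, 21.1 and 31.4 CPM.

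**Figure D1:**
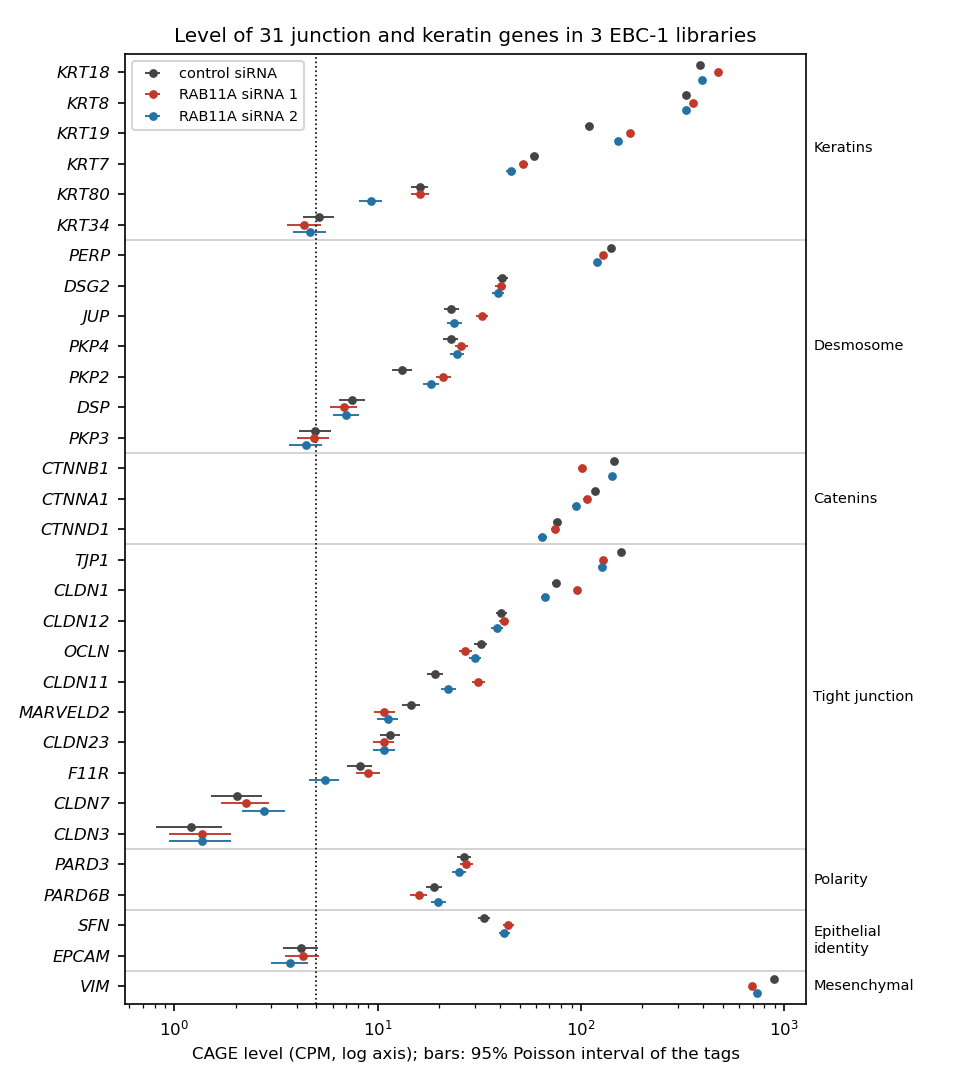
CAGE level of each of the 31 genes in CPM (log axis) in the control (grey), siRNA 1 (red) and siRNA 2 (blue) libraries, grouped by role, with 95% Poisson intervals of the tags; the dotted line marks 5 CPM. VIM and the keratins KRT18 and KRT8 stood highest, and CLDN7 and CLDN3 stood lowest, at 1.20 to 2.76 CPM.

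The catenin genes CTNNB1, CTNNA1 and CTNND1 stood at or below control in both siRNA libraries, lowest in ratio for beta-catenin with siRNA 1. CTNNB1 (chr3:41236232-41301587, GRCh37), which encodes beta-catenin, stood at 146, 101 and 142 CPM. The siRNA 1 library stood alone, with a 95% counting interval apart from those of the other libraries, which overlapped. Its log2 ratio of (CPM + 1) to control was -0.52 with siRNA 1 (counting standard error 0.037), at the 3.59th percentile of all genes compared. With siRNA 2 it was -0.04, which became 0.02 under another scaling and so carries no direction.

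CTNNA1, alpha-catenin, stood at 117, 107 and 94.5 CPM, lowest with siRNA 2 and with all 3 counting intervals apart. Its log2 ratios to control were -0.13 and -0.31. CTNND1, p120-catenin, which holds cadherins at the surface, stood at 75.9, 74.3 and 64.6 CPM. Control and siRNA 1 overlapped, and siRNA 2 lay below both (log2 ratio -0.23). None of these 3 catenin genes was 1.5-fold from control. Plakoglobin (JUP), also of adherens junctions, is given below with the desmosome and had log2 ratios of 0.48 and 0.05.

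Among desmosomal genes, the plakophilin PKP2 was higher in both siRNA libraries and plakoglobin in the siRNA 1 library. PKP2 (chr12:32943679-33049732, GRCh37), a plaque protein that joins desmoplakin to the desmosomal cadherins, stood at 13.2, 21.0 and 18.3 CPM. Both siRNA libraries lay above control, and their intervals overlapped each other. The log2 ratios were 0.63 (counting standard error 0.095) and 0.44 (0.098). One or more of its annotated starts matched 1 other place in the genome, and whether tags came from there was not tested. JUP, plakoglobin, which sits in both desmosomes and adherens junctions, stood at 23.0, 32.6 and 23.9 CPM. It was high in the siRNA 1 library alone (log2 ratio 0.48, counting standard error 0.076, against 0.05 with siRNA 2).

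The other desmosomal genes lay closer to control. DSG2, the desmoglein of simple epithelia, stood at 41.1, 40.3 and 39.1 CPM, with overlapping intervals. DSP, desmoplakin, stood at 7.48, 6.80 and 7 CPM, also overlapping. PKP4, an armadillo protein of junctions, stood at 22.8, 25.8 and 24.5 CPM, and PKP3 at 4.92, 4.84 and 4.44. Neither gene's intervals separated any pair of libraries. PERP, a tetraspan protein of the desmosome and a p53 target, stood at 141, 128 and 120.4 CPM, with both siRNA libraries below control at log2 ratios of -0.13 and -0.22. In every library DSP stood below DSG2 and above PKP3.

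Of the 8 tight junction genes compared, 4 stood above control and 4 below it with siRNA 1. With siRNA 2, 1 stood above and 7 below. Over all genes compared, 54.6% stood below control with siRNA 1 and 58.2% with siRNA 2. The siRNA 2 ratios of CLDN12 (-0.07), CLDN23 (-0.09) and OCLN (-0.09) lay within counting error (standard errors 0.063, 0.112 and 0.071). Among the 6 claudins, CLDN1 and CLDN11 had counting intervals apart between the siRNA libraries. CLDN11 (chr3:170136656-170172521, GRCh37), a claudin best known from myelin and Sertoli cells, stood at 19.2, 31.3 and 22.2 CPM. The siRNA 1 library was high, and control and siRNA 2 overlapped. Its log2 ratios to control were 0.67 (counting standard error 0.080) and 0.20 (0.086). CLDN1 (chr3:190023496-190040235, GRCh37), a barrier-forming claudin, stood at 75.5, 95.9 and 66.6 CPM. All 3 intervals were apart, with siRNA 1 above control and siRNA 2 below it, at log2 ratios of 0.34 (counting standard error 0.044) and -0.18 (0.048). CLDN12 stood at 40.6, 41.9 and 38.6 CPM, with overlapping intervals.

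CLDN23 stood at 11.5, 10.7 and 10.8 CPM, also overlapping, and its 3 values were identical to those of 1 other entry, AC087269.1, so its tags cannot be told from that entry's. CLDN7 stood at 2.04, 2.24 and 2.76 CPM and CLDN3 at 1.20, 1.36 and 1.36. Both are claudins typical of simple epithelia, and neither separated any libraries at this depth.

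The scaffold TJP1 (ZO-1), which anchors claudins to actin, stood at 158, 129 and 126 CPM. Both siRNA libraries lay below control and overlapped each other, at log2 ratios of -0.29 and -0.32. MARVELD2, tricellulin, the protein of tricellular contacts, stood at 14.6, 10.8 and 11.2 CPM, in the same arrangement, at -0.40 and -0.35 (counting standard errors 0.107 and 0.106). OCLN, occludin, stood at 32.1, 27.0 and 30.2 CPM, with siRNA 1 below control (-0.24) and siRNA 2 overlapping both. One or more of its annotated starts matched 3 other places. F11R, the junctional adhesion molecule JAM-A, stood at 8.16, 9 and 5.48 CPM. It was low with siRNA 2 alone (-0.50, counting standard error 0.138, against 0.13 with siRNA 1).

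Polarity proteins place the tight junction, and neither of the 2 in this set was 1.5-fold from control. PARD3, a scaffold of the apical PAR complex, stood at 26.6, 27.3 and 25.04 CPM, with overlapping intervals. PARD6B, its partner that binds atypical protein kinase C, stood at 18.9, 15.9 and 19.9 CPM. The siRNA 1 and siRNA 2 intervals were apart, and each overlapped control. The PARD6B log2 ratio to control was -0.24 with siRNA 1 (counting standard error 0.093) and 0.07 with siRNA 2. SFN, the epithelial 14-3-3 protein stratifin, stood at 33.2, 44 and 42.0 CPM. Both siRNA libraries lay above control and overlapped each other, at log2 ratios of 0.39 and 0.33.

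Keratins pair as a type I with a type II chain, and KRT19 and KRT18 (type I) and KRT8 (type II) were higher with siRNA 1 than control. KRT7 (type II) was lower. KRT19 (chr17:39679869-39684560, GRCh37), a type I keratin of simple epithelia, stood at 109, 175 and 152 CPM. Both siRNA libraries lay above control, siRNA 1 the most, with all 3 intervals apart. The log2 ratios were 0.68 (counting standard error 0.035) and 0.47 (0.036), at the 98.2nd and 97.7th percentiles of all genes compared. KRT18, the type I partner of KRT8, stood at 386, 475 and 394 CPM, high with siRNA 1 alone (0.30 against 0.03). KRT8 (type II) stood at 328, 358 and 329 CPM, in the same arrangement at 0.12 and 0.00. Annotated starts of KRT8 matched 24 other places and those of KRT18 matched 4, so tags of pseudogenes may be mixed in. The listed pseudogene KRT8P12 stood at 10.8, 11.1 and 9.44 CPM, far below KRT8 in every library, and KRT8P3 at 1.16, 1.16 and 1.00.

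KRT7, a type II keratin of glandular epithelium, was below control in both siRNA libraries, at 59.0, 52.2 and 45.3 CPM, with all 3 intervals apart and log2 ratios of -0.17 and -0.37. One or more of its annotated starts matched 1 other place. KRT80 (chr12:52562780-52585798, GRCh37), a type II keratin of many epithelia found near desmosomes, stood at 16.1, 16.2 and 9.28 CPM. The siRNA 2 library was low, and the other libraries overlapped. Its log2 ratio with siRNA 2 was -0.74 (counting standard error 0.109), at the 0.742nd percentile of all genes, against 0.00 with siRNA 1. KRT34, a hair keratin, stood at 5.16, 4.36 and 4.64 CPM, with overlapping intervals. Summed over the 6 keratins, levels were 904, 1081 and 934 CPM.

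VIM, the mesenchymal counterpart, was below control in both siRNA libraries, at log2 ratios of -0.37 and -0.28 (counting standard errors 0.015 and 0.014). Its 3 intervals were apart at 22354, 17296 and 18383 tags. CDH2, the cadherin usually named with it, was not analysed here.

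**Figure D2:**
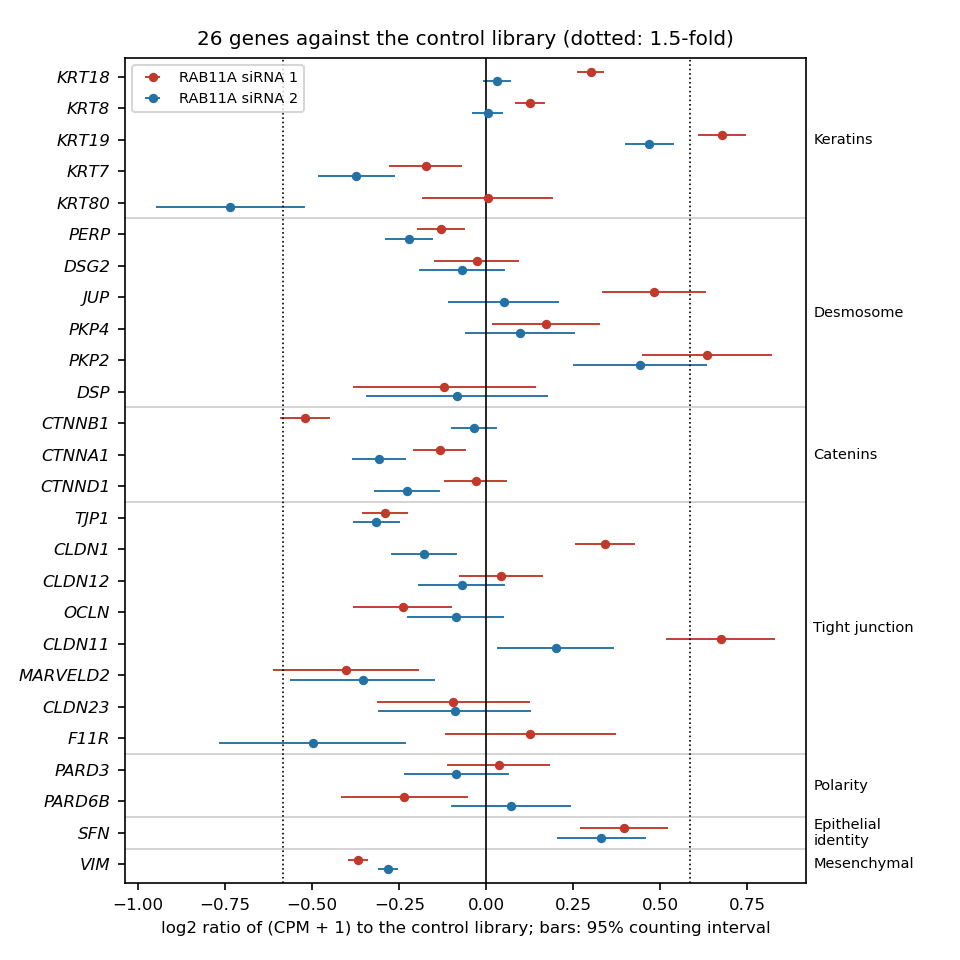
Log2 ratio of (CPM + 1) to the control library for the 26 genes compared, siRNA 1 in red and siRNA 2 in blue, with 95% counting intervals as bars; dotted lines mark 1.5-fold. KRT19, CLDN11 and PKP2 passed 1.5-fold upward with siRNA 1, and KRT80 passed it downward with siRNA 2.

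Over the 26 genes, 3 were at least 1.5-fold higher with siRNA 1 than control (KRT19, CLDN11 and PKP2), where 2.81% of all genes compared were. None was at least 1.5-fold lower, where 2.56% of all genes were. With siRNA 2 none was at least 1.5-fold higher (all genes 1.24%) and 1, KRT80, was at least 1.5-fold lower (all genes 1.85%). None of the 26 was 2-fold from control with siRNA 1 or with siRNA 2, as 0.89% and 0.463% of all genes were. The median log2 ratio of the members was -0.01 with siRNA 1 and -0.09 with siRNA 2, beside -0.03 and -0.04 over all genes. Any difference above control was seen for 13 of 26 with siRNA 1 (all genes 45.1%) and 9 of 26 with siRNA 2 (all genes 41.4%). Below control stood 13 (all genes 54.6%) and 17 (all genes 58.2%). Both comparisons share the control library.

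An exact two-sided binomial test of the tags with Benjamini-Hochberg adjustment compares these libraries, not the conditions. With siRNA 1 it called 8 members higher (CLDN1, CLDN11, JUP, KRT18, KRT19, KRT8, PKP2 and SFN), beside 23.3% of all genes. It called 9 lower (CTNNA1, CTNNB1, KRT7, MARVELD2, OCLN, PARD6B, PERP, TJP1 and VIM), beside 29.1% of all genes. With siRNA 2 it called 4 higher (CLDN11, KRT19, PKP2 and SFN), beside 18.4% of all genes. It called 10 lower (CLDN1, CTNNA1, CTNND1, F11R, KRT7, KRT80, MARVELD2, PERP, TJP1 and VIM), beside 29.9% of all genes.

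A direct comparison of the siRNA libraries does not use the control. KRT80, F11R, CLDN1, CLDN11 and JUP stood higher with siRNA 1, and CTNNB1 and PARD6B lower. KRT80 at 16.2 against 9.28 CPM had a log2 ratio of 0.74 (counting standard error 0.109), and F11R at 9 against 5.48 had 0.63 (0.136). These were the 2 members at least 1.5-fold higher with siRNA 1, where 0.899% of all genes were, and none was at least 1.5-fold lower (all genes 0.695%). No member was 2-fold apart (all genes 0.352%). CLDN1 had a ratio of 0.52, CLDN11 0.47 and JUP 0.43, while CTNNB1 had -0.49 and PARD6B -0.31.

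All 5 keratins compared were higher with siRNA 1 than with siRNA 2. Their log2 ratios ran from 0.12 to 0.74, and the middle one was 0.21. Of the 6 desmosomal genes 5 were higher, and of the 8 tight junction genes also 5. Over all members 19 of 26 were higher (all genes 55.0%) and 7 lower (all genes 44.6%), with a median of 0.12 beside 0.02 for all genes. The binomial test called 12 higher and 3 lower, beside 21.4% and 15.4% of all genes.

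**Figure D3:**
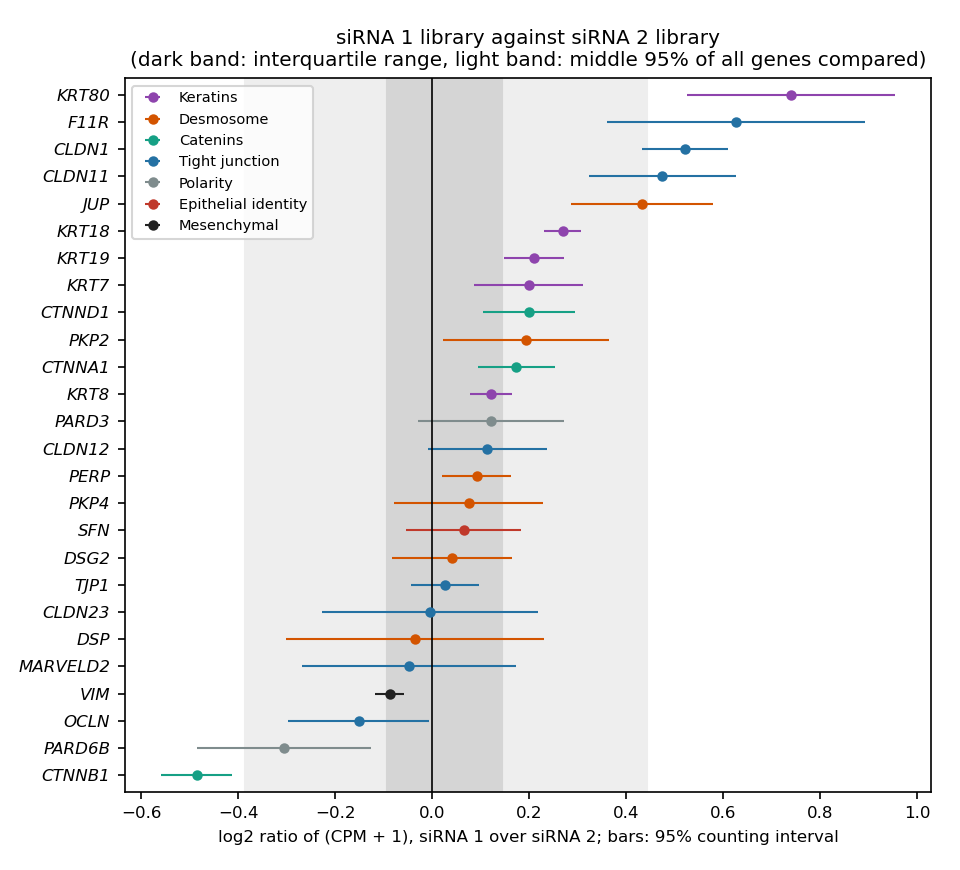
Log2 ratio of (CPM + 1) of the siRNA 1 library to the siRNA 2 library for the 26 genes, coloured by role, with 95% counting intervals as bars, over the interquartile range (dark band) and middle 95% (light band) of all genes compared. KRT80, F11R, CLDN1 and CLDN11 lay above the light band and CTNNB1 below it.

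Other genes of the same structures were taken from lists of gene names, drawn up with earlier results of these data known. Of 19 further adherens junction and nectin genes compared, none was at least 1.5-fold higher in either siRNA library (all genes 2.81% and 1.24%). MLLT4, afadin, which links nectins to actin, was the 1 gene 1.5-fold lower, with siRNA 2, at 36.8, 27.0 and 20 CPM (log2 ratios -0.43 and -0.85). Of all genes compared, 2.56% were at least 1.5-fold lower with siRNA 1 and 1.85% with siRNA 2. Medians of the list were 0.08 and 0.01, beside -0.03 and -0.04 over all genes. LIMA1, the actin-bundling protein EPLIN that binds alpha-catenin, stood at 132, 187 and 129 CPM. It was high with siRNA 1 alone.

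Of 9 further desmosome, hemidesmosome and plakin genes, none was 1.5-fold from control, with medians of 0.09 and 0.13. PLEC, plectin, a cytolinker of keratin, stood at 161, 116 and 143 CPM, and ITGA6, the hemidesmosomal integrin subunit, at 128, 168 and 144. Of 26 further tight junction and polarity genes, none passed 1.5-fold, with medians of 0.02 and -0.04. ARHGEF2, a RhoA exchange factor held at tight junctions, stood at 99.8, 66.7 and 78.8 CPM.

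Among 9 further epithelial surface and barrier genes, AP1M2 was the 1 gene at least 1.5-fold higher in each siRNA library (all genes 2.81% and 1.24%). AP1M2 encodes the epithelial clathrin adaptor subunit that sorts cargo to the basolateral membrane, and stood at 94.96, 179.9 and 176 CPM (log2 ratios 0.91 and 0.88). The list's medians were 0.30 and -0.05, and none was 1.5-fold lower. CD9, a tetraspanin, stood at 134, 182 and 169 CPM. LGALS3 was below control in both siRNA libraries, at 307, 251 and 275 CPM (log2 ratios -0.29 and -0.16). ANXA1 stood on opposite sides of control, at 360, 471 and 324 CPM (0.39 and -0.15). Of the 9 genes, 6 stood above control and 3 below with siRNA 1, and 3 above and 6 below with siRNA 2.

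Of 27 epithelial and transition transcription factors, 7 were compared. KLF5, an epithelial factor of proliferating layers, was 1.5-fold higher with siRNA 1 (all genes 2.81%). It stood at 15.6, 25.2 and 18.3 CPM (log2 ratios 0.66 and 0.22). TCF3, KLF4 and TFAP2C were lower with siRNA 2, at log2 ratios of -0.48, -0.47 and -0.39. With siRNA 1 theirs were -0.15, -0.09 and -0.03. Of the 7 factors, 3 stood above control and 4 below with siRNA 1, and 4 above and 3 below with siRNA 2. ZEB1 and ZEB2, repressors of epithelial genes that read CAGGTG, stood at 20.9, 23.6 and 22.0 CPM and at 26.4, 24.6 and 26.5 CPM. The list's medians were -0.03 and 0.01. Of 4 other intermediate filament genes compared, LMNB1, lamin B1 of the nuclear lamina, was 1.5-fold higher with siRNA 1 (all genes 2.81%). It stood at 14.9, 24.04 and 17.3 CPM. The median of those 4 was 0.30 with siRNA 1 and 0.04 with siRNA 2.

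The 22 cadherin endocytosis and recycling partners compared had medians of -0.11 and -0.11, with none 1.5-fold away. In each library 15 stood below control, beside 54.6% and 58.2% of all genes. GOLGA1, a golgin of the trans-Golgi network through which E-cadherin leaves, stood at 25.5, 20.5 and 17.6 CPM (-0.30 and -0.51). RAB11FIP2, a RAB11 effector that binds myosin Vb, stood at 31.1, 24.96 and 28.2 CPM. NUMB, an endocytic adaptor, stood at 96.7, 77.9 and 82.2 CPM.

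**Figure D4:**
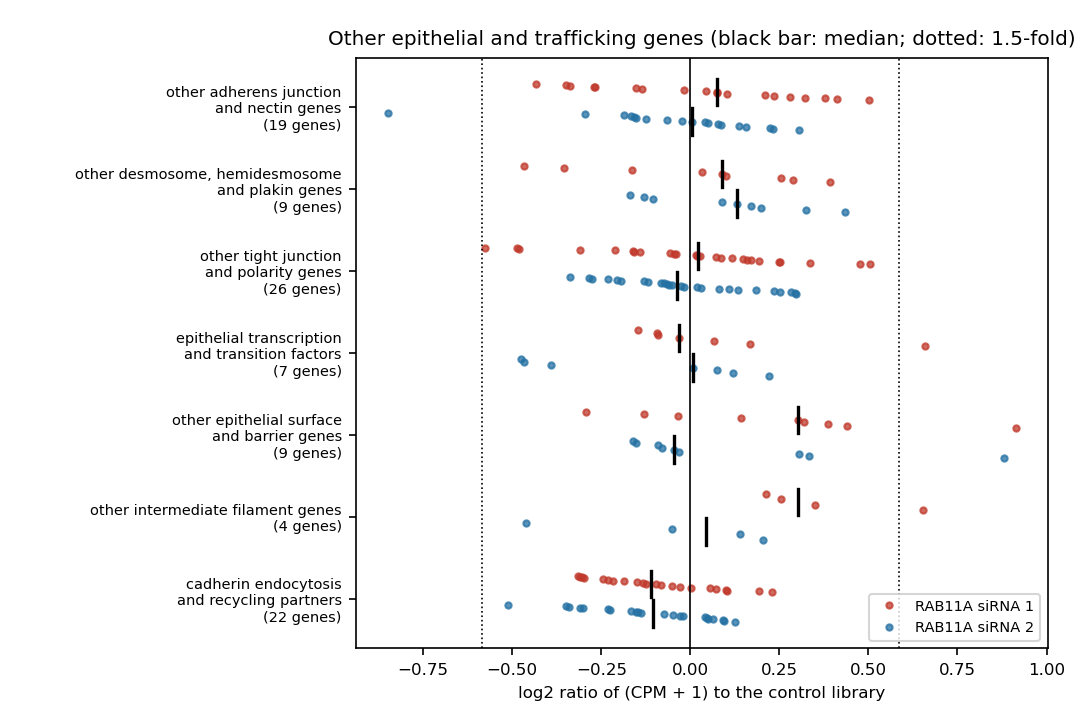
Log2 ratio of (CPM + 1) to the control library for each compared gene of 7 further lists, siRNA 1 in red and siRNA 2 in blue, with the list median as a black bar and 1.5-fold as dotted lines. AP1M2 lay farthest to the right with both siRNAs, and MLLT4 farthest to the left with siRNA 2.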

How the data were processed

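CAGE libraries of total RNA from EBC-1 cells were used, 1 each for control siRNA, RAB11A siRNA 1 and RAB11A siRNA 2. The authors deposited 1 table of stranded gene entries in CPM, and its 3 columns carry the library names. The submitters' processing notes name hg19, BWA and HISAT2. What each did, how tags were assigned to genes and strands, the gene models, and what was done with multiply aligned reads are not given in the sources read. Each listed gene reached at least 0.52 CPM in 1 library. Values were whole multiples of about 0.04 CPM for 100% of values, within 0.01 CPM, so values were read as whole tags, with implied totals of 24999968, 24999972 and 24999969. Sums over genes were larger, at 25174787, 25204585 and 25137457, and the true depth is not known. On those tags the binomial test called 2518 genes higher and 3143 lower for siRNA 1, and 1983 and 3230 for siRNA 2.

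The measure was the log2 ratio of (CPM + 1), which understates low genes, for genes whose average reached 5 CPM, and 1.5-fold was counted. With 1 library per group no test of the condition was possible. Standard errors and 95% intervals treat tags as Poisson counts, and whether tags stand for separate molecules was not known. The calculation was checked on simulated tags. Members, lists and tests were chosen with earlier results of these data known. Every member could be named, and of each other list up to 4 genes with the largest ratio per siRNA. CD68, COL1A1, COL1A2, FN1 and AC087269.1 were named outside that rule, as were EIF4B, IGFBP6, SPRYD3 and C12orf44, which lie near keratin genes. Annotated starts (first 50 bases) of the 31 genes were searched in GRCh37 with minimap2 2.31, allowing 2 mismatches. Coordinates are from GENCODE lifted to GRCh37. Alternatives were a pseudocount of 0.5 or 5 CPM, a minimum average of 1 or 20 CPM or none, TMM (edgeR 4.0.16, R 4.3.3) and median-ratio scaling, 2-fold, the binomial test, and leaving out genes with copied starts. Python 3.11.15, numpy 2.4.6, pandas 2.3.3, scipy 1.17.1 and matplotlib 3.10.9 were used.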

Additional observations from a re-analysis of the deposited data

Results flagged for a closer look

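CLDN1 stood on opposite sides of control with the 2 siRNAs, above it with siRNA 1 and below it with siRNA 2, each by more than its 95% counting interval. Its log2 ratio of siRNA 1 to siRNA 2 was 0.52. With 1 library each, the difference between the siRNAs was not tested against any spread between cultures.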

How the results depend on the processing

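No paired analysis was possible because each group has 1 library, and no replicate could be left out. Of 84 recomputed counts and medians, 14 were classed as moved, 5 changed sign and 65 were classed as neither. The limits used were wide, so the 65 are not a measure of stability. They include the members' median with siRNA 2, which went from -0.085 to -0.038 under TMM. They also include the count of members at least 1.5-fold higher with siRNA 1, which went from 3 to 2 at a minimum average of 20 CPM. The sign changes all concern the members' median with siRNA 1 (main value -0.01), which was 0.00337 when the minimum average was 1 CPM or dropped, 0.0351 at 20 CPM, 0.0140 under TMM and 0.0140 under median-ratio scaling, so it carries no direction. With a pseudocount of 5 CPM the members at least 1.5-fold higher with siRNA 1 went from 3 to 1, those lower with siRNA 2 from 1 to 0, and those higher with siRNA 1 than siRNA 2 from 2 to 0, because the pseudocount shrinks low genes. At a minimum mean of 20 CPM the latter counts were also 0 and 0, because KRT80 and F11R are then left out. At 2-fold the counts of 3, 1 and 2 were 0, 0 and 0. The binomial test gave 8 higher and 9 lower with siRNA 1, 4 and 10 with siRNA 2, and 12 and 3 between the siRNAs. Over all genes, TMM gave 1.61% higher and 1.47% lower with siRNA 2, against 1.24% and 1.85% as deposited. It shifted the median of all genes by under 0.05, and among the 26 members CTNNB1 with siRNA 2 was the 1 ratio that changed sign under another pseudocount or scaling. Without KRT8, KRT18, KRT7, OCLN and PKP2, whose starts have copies, 2 genes were 1.5-fold higher with siRNA 1. Depth limits CLDN3 and CLDN7, at 30 to 69 tags a library.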

Other observations

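KRT8 and KRT18 are neighbours whose annotated gene spans overlap on opposite strands (chr12:53290971-53343738 and chr12:53342655-53346690, GRCh37), and the table lists them as separate stranded entries. Other compared genes lie within 150 kb of KRT18. EIF4B, a translation initiation factor, had 64.6, 58.4 and 41.6 CPM (control, then siRNA 1 and siRNA 2), IGFBP6 at 57.3, 45.6 and 69.1, and SPRYD3 at 13, 11.8 and 12.2. KRT7 and KRT80, the members lowest relative to control among keratins with siRNA 2, lie 40.5 kb apart on chromosome 12.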
